A study of Homo sapiens with 6 samples.

Results

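A set of 10 neuronal marker genes was followed in MO3.13 cells, and 9 of the 10 (ENO2, NEFL, NEFM, NEFH, SYT1, SNAP25, STMN2, MAP2 and GAP43) were measured, among 14232 genes that could be read from a probe set annotated with a single symbol. The members were chosen by name, as widely used markers of neurons, and each is read from the probe set annotated with that gene alone. Each of the 9 had 1 such probe set. TUBB3, the neuronal beta-tubulin, was not measured, because the only probe set that lists it also lists MC1R and 3 further tubulin genes or pseudogenes. The cells are the human line MO3.13, which the labels call an oligodendroglioma line and which is known elsewhere as a fusion of a rhabdomyosarcoma line with adult oligodendrocytes. The Klotho group (3 arrays) had been grown in medium with 10% fetal bovine serum and then exposed to recombinant mouse Klotho at 0.4 µg/mL for 3.5 h without serum. The control group (3 arrays) was grown in the same medium, with no serum-free step named for it, so that Klotho and serum withdrawal cannot be told apart. Values are RMA signals on the log2 scale, in which 1 unit is a factor of 2.

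The members cover the main parts of a neuron. ENO2 encodes neuron-specific enolase, a glycolytic enzyme that replaces the common form as neurons mature. NEFL, NEFM and NEFH encode the light, medium and heavy neurofilament chains, which co-assemble into the filaments that set axon calibre. MAP2 stabilises microtubules in dendrites, STMN2 regulates microtubules in growing axons, and GAP43 is a membrane protein of the growth cone. SYT1 is the calcium sensor of synaptic vesicles, and SNAP25 is the membrane SNARE protein with which the vesicles fuse. Many neuronal genes are held down in other cells by the repressor REST, and tumour lines of non-neuronal origin often transcribe a few of them.

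The RefSeq windows of 250 bases before the gene start (GRCh38.p14, all on the plus strand) are shown for the 3 members whose mean signal was above the level taken as background, ENO2 (chr12:6914330-6914579), MAP2 (chr2:209661246-209661495) and GAP43 (chr3:115623260-115623509), and for SYT1 (chr12:78864524-78864773), whose mean signal was not. Capitals mark the GC box (GGGCGG) and the letters GGACAG on either strand. These letters are part of the right arm of the REST-binding element.
ENO2: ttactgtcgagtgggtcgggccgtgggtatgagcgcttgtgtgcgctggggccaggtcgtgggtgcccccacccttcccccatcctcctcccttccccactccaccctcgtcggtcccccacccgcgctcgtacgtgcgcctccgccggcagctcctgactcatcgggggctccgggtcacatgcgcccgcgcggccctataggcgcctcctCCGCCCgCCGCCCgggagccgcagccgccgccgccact
MAP2: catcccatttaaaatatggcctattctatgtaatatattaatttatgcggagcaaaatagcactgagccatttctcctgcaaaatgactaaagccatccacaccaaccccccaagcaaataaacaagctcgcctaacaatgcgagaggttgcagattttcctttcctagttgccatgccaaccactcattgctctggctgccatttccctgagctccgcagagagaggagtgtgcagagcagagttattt
GAP43: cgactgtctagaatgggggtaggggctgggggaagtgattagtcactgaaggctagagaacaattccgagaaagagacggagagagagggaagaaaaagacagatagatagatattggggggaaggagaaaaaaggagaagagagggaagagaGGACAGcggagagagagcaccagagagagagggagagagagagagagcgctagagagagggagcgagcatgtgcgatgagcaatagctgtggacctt
SYT1: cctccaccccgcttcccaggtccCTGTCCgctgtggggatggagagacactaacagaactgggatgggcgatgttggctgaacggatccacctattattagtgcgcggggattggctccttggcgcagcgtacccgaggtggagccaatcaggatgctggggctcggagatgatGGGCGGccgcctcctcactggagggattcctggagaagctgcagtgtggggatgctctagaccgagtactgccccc
The ENO2 window was 74% G and C and held 2 GC boxes, and the SYT1 window was 62% and held 1. The GAP43 and MAP2 windows were 51.6% and 44.4% and held none. A GC box occurs in 42.3% of 27305 such windows. The letters GGACAG lay once in the GAP43 and once in the SYT1 window, a match that 17.1% of all windows have. The window of TUBB3, which was not measured and is not shown, also held GGACAG once. The letters GGACAG are fewer than those searched for the left arm, and a longer right arm was not searched for. The left arm of the REST element (TTCAGCACC, in 0.300% of windows) and a TATA box (TATAAA, in 11.1%) were found in none of the 4. These matches describe the letters only, and no binding was measured here.

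Only 2 of the 9 members, ENO2 and MAP2, had a signal well clear of background. Background was taken from 220 olfactory receptor genes, which are mostly transcribed in olfactory neurons alone. Their probe sets had a median of 3.32 and a 95th percentile of 5.09, and the brightest read 5.95. This is a rough mark, since probe sets differ in affinity and base composition, and for the same reason signals of different genes are not ranked here as transcript amounts. GAP43 lay at the mark. The neurofilament genes, SYT1, SNAP25 and STMN2 lay below it. Of the olfactory receptor genes, 88.2% to 88.6% read lower than the neurofilament genes, SYT1 and STMN2, and 72.7% lower than SNAP25. On arrays of whole cultures, fewer cells with a transcript and less of it per cell cannot be told apart. By comparison 74.1% of all 14232 genes had a mean signal above 5.09.

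ENO2 read 7.89, 8.15 and 8.07 on the 3 Klotho arrays, against 8.30, 8.10 and 8.18 on the 3 control arrays. Klotho array 1 was the lowest and control array 1 the highest, and the groups overlapped. The means were 8.04 ± 0.13 in Klotho cells and 8.19 ± 0.10 in control cells (SD, n = 3 each), a difference of -0.15 (95% interval -0.40 to 0.09; limma, adjusted p = 0.998). No other member had a smaller unadjusted p in limma, and 14.1% of all probe sets had a smaller one than ENO2. With 1 array left out the difference ran from -0.21 (without Klotho array 2) to -0.08 (without Klotho array 1).

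MAP2 read 7.40, 7.59 and 7.78 on the Klotho arrays, against 7.48, 7.79 and 7.68 on the control arrays. The ranges nearly coincided. The means were 7.59 ± 0.19 in Klotho cells and 7.65 ± 0.16 in control cells (SD, n = 3 each), a difference of -0.06 (95% interval -0.38 to 0.26; limma, adjusted p = 0.998). Its direction depended on the arrays: with 1 array left out the difference ran from -0.16 (without Klotho array 3) to 0.03 (without Klotho array 1), and from -0.011 to 0.0036 under 3 other scalings (median centring, quantile normalization and cyclic loess). The 2 genes stood at the 75.9th (ENO2) and 69.0th (MAP2) percentile of all probe sets.

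GAP43 read 5.42, 4.82 and 5.22 on the Klotho arrays, against 5.06, 5.20 and 5.17 on the control arrays. The Klotho values lay on both sides of the control values. The means were 5.15 ± 0.30 in Klotho cells and 5.14 ± 0.07 in control cells (SD, n = 3 each), with a difference of 0.01 (95% interval -0.37 to 0.39; limma, adjusted p = 0.999). Taken array by array, GAP43 was above that array's own olfactory receptor 95th percentile on 4 of the 6 arrays. Klotho array 2 was the lowest and Klotho array 1 the highest, and without each of them the difference was 0.17 and -0.13 in turn.

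The 3 neurofilament genes all read between 4.60 and 5.02 and were above the array's own olfactory receptor mark on 0 of 6 arrays. NEFL, the light chain, read 4.83, 4.92 and 4.71 on the Klotho arrays, against 4.79, 4.92 and 4.69 on the control arrays. NEFH, the heavy chain, read 4.76, 4.94 and 4.64 on the Klotho arrays, against 4.79, 4.98 and 4.62 on the control arrays. In both genes the groups spanned almost the same range, and array 2 was the highest and array 3 the lowest of each group. The differences were 0.02 for NEFL (95% interval -0.22 to 0.26) and -0.02 for NEFH (95% interval -0.32 to 0.28), both with a limma adjusted p of 0.998. NEFM, the medium chain, read 4.75, 4.65 and 4.60 on the Klotho arrays, against 4.68, 5.02 and 4.74 on the control arrays. Control array 2 stood above the other values. The NEFM difference was -0.15 (95% interval -0.42 to 0.12; limma, adjusted p = 0.998), and with 1 array left out it ran from -0.21 (without control array 1) to -0.04 (without control array 2).

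The synaptic genes were likewise at background. SYT1 read 4.59, 4.79 and 5.05 on the Klotho arrays, against 5.06, 4.82 and 4.78 on the control arrays. The spread within each group was larger than the difference of -0.08 (95% interval -0.43 to 0.27; limma, adjusted p = 0.998). SNAP25 read 4.12, 3.82 and 4.19 on the Klotho arrays, against 3.83, 3.98 and 4.26 on the control arrays. It was the only member whose mean signal lay under the first quartile of the array, 4.70, and its difference was 0.02 (95% interval -0.34 to 0.38; limma, adjusted p = 0.998). SYT1 was above the array's own olfactory receptor mark on 2 of 6 arrays, and SNAP25 on 0.

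STMN2 varied most between arrays. It read 4.80, 4.48 and 4.80 on the Klotho arrays, against 5.12, 4.90 and 4.55 on the control arrays. The 6 values spanned 0.64, and 9.25% of all genes had a wider range. STMN2 was above the array's own olfactory receptor mark on 1 of 6 arrays. The difference was -0.16 (95% interval -0.57 to 0.25; limma, adjusted p = 0.998), the largest in size of the 9, and with 1 array left out it ran from -0.32 (without control array 3) to -0.03 (without control array 1).

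**Figure D1:**
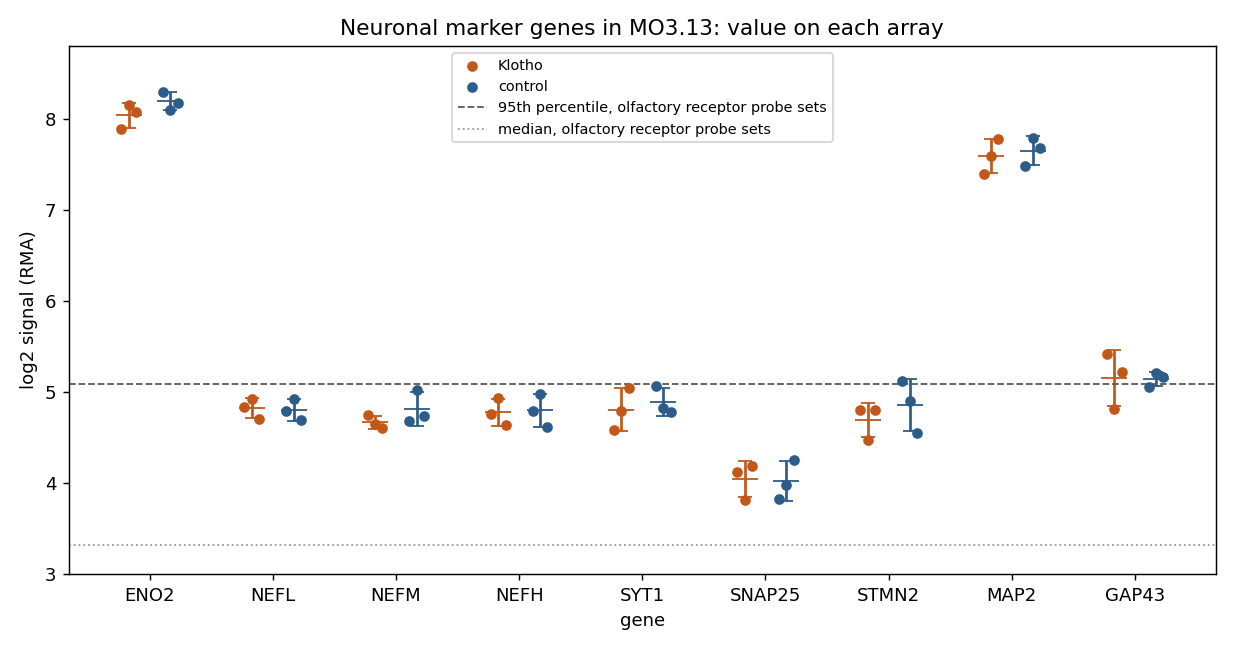
Log2 RMA signal (vertical axis) of the 9 measured neuronal marker genes (horizontal axis) on the 3 Klotho (orange, left of each pair) and 3 control (blue, right) arrays; points are arrays, and bars show the mean ± SD of each group. ENO2 and MAP2 lie above 7, GAP43 lies about the dashed line at 5.09 (95th percentile of 220 olfactory receptor genes), and the other 6 members have means below that line; the dotted line is the olfactory receptor median of 3.32.

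The comparison of Klotho with control cells asked whether any neuronal marker differed after 3.5 h. Of the 9 measured members, 0 passed an adjusted p of 0.05 in limma, as did 0% of all 22011 probe sets. Before adjustment 0 of 9 had a p under 0.05 in limma, against 2.07% of all genes and 3.19% of all probe sets. In none of the 9 did the Klotho and control values separate without overlap, against 7.89% of all genes. The members' differences ran from -0.16 (STMN2) to 0.02 (SNAP25), with a median of -0.06, beside a median of -0.03 over all genes. Of the 9, 6 were lower in Klotho cells, where 62.6% of all genes were lower. After median centring of each array, quantile normalization or cyclic loess, 5 or 6 of the 9 members were lower and 42.7%, 46.8% and 50.3% of all genes. Under these scalings the members' median was -0.026 to -0.0058, and that of all genes 0.018, 0.0065 and -0.00069.

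The arrays set close bounds on the members' signals. All 9 of the 95% intervals stayed inside a 1.5-fold change up or down, which also held for 91.7% of all genes. The widest was that of STMN2, a Klotho to control ratio of 0.673 to 1.19. For ENO2 the ratio was 0.898 (95% interval 0.759 to 1.06) and for MAP2 0.959 (95% interval 0.770 to 1.19). For the 6 members below the background mark, the interval limits the array signal and says little of the transcript. Whether any of these genes had differed earlier than 3.5 h was not measured.

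**Figure D2:**
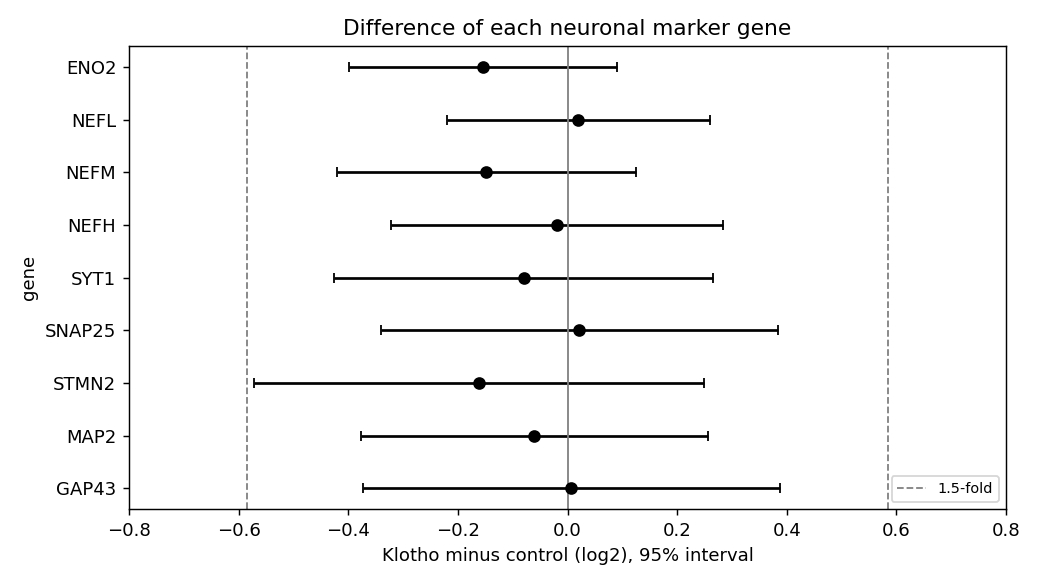
Klotho minus control difference (log2, horizontal axis) of the 9 neuronal marker genes (vertical axis), with points for the limma estimate and bars for the 95% interval. All 9 intervals include 0 and lie between the dashed lines at a 1.5-fold change, and the widest, that of STMN2, runs from -0.57 to 0.25.

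Closely related genes were read beside the members, since most marker genes belong to families with a common form. Some of these relatives have wider expression, and others are neuronal genes themselves. ENO1, the common enolase, read 12.95 ± 0.04 in Klotho cells and 12.91 ± 0.06 in control cells, and ENO3, the muscle enolase, 8.89 ± 0.04 and 8.97 ± 0.19 in Klotho and control cells (SD, n = 3 each). All 3 enolase genes were above background, and none passed (limma, adjusted p = 0.998 each). SNAP23, the SNARE gene that does the work of SNAP25 in most other cells, read 8.59 ± 0.16 in Klotho cells and 8.63 ± 0.20 in control cells, while SNAP25 was at background. STMN1, the stathmin of dividing cells, read 10.18 ± 0.07 in Klotho cells and 10.21 ± 0.11 in control cells, while STMN2 was at background. STMN3, which is also among the neuronal cytoskeleton genes listed below, read 7.93 ± 0.17 and 7.86 ± 0.17 in Klotho and control cells. MAP4, the microtubule protein of non-neuronal cells, read 8.08 ± 0.09 in Klotho cells and 8.18 ± 0.03 in control cells. Intermediate filament genes outside the neurofilament trio were above background. VIM (vimentin) read 11.51 in both groups, and NES (nestin) averaged 8.67 in Klotho cells and 8.69 in control cells. INA, which encodes alpha-internexin, a neuronal filament protein that assembles with the neurofilament chains, read 8.15 ± 0.19 in Klotho cells and 8.29 ± 0.15 in control cells, and PRPH, the peripherin of peripheral neurons, 6.12 ± 0.09 and 6.24 ± 0.09 in Klotho and control cells. Both were above the mark of 5.09 although NEFL, NEFM and NEFH were not.

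Of 35 measured relatives of the members, 0 passed the adjusted threshold in limma and 2 had an unadjusted p under 0.05, beside 2.07% of all genes. DES, the muscle filament desmin, read 8.33, 8.38 and 8.25 on the Klotho arrays, against 8.48, 8.65 and 8.62 on the control arrays, a difference of -0.27 (limma, adjusted p = 0.998). SYT4, a synaptotagmin, read 4.23, 4.34 and 4.08 on the Klotho arrays, against 3.98, 3.86 and 3.98 on the control arrays, a difference of 0.28 (limma, adjusted p = 0.998) at a signal below the background mark. In both genes the groups did not overlap, nor did they in SYT12 (difference 0.27). These are 3 of 35 relatives, a share near the 7.89% of all genes. Among the synaptotagmins SYT11 averaged 7.44 in Klotho cells and 7.43 in control cells, and SYT5 averaged 6.21 and 6.27 in Klotho and control cells.

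Wider lists of neuronal genes held some genes with signal and none that passed. Of 28 measured genes of the neuronal cytoskeleton and growth cone, 23 had a mean signal above 5.09, beside 74.1% of all genes. In limma 0 passed. Among those above it were UCHL1, the ubiquitin hydrolase abundant in neurons (11.17 ± 0.02 in Klotho cells and 11.24 ± 0.11 in control cells), DPYSL2, a collapsin response protein (9.30 ± 0.03 and 9.31 ± 0.07 in Klotho and control cells), and INA. The migration gene DCX (doublecortin) was at background, with 3.82 ± 0.12 in Klotho cells and 3.77 ± 0.04 in control cells. The smallest p was that of the microtubule gene MAP1A, which read 7.97, 8.06 and 8.15 on the Klotho arrays, against 8.24, 8.36 and 8.21 on the control arrays. Its groups did not overlap, and its difference was -0.21 (limma, unadjusted p = 0.0478, adjusted p = 0.998). The axonal motor gene KIF1A and the endosomal gene NSG1 differed by -0.14 and -0.17, also without overlap, and NSG1 averaged 4.97, below the background mark. These 3 of 28 without overlap stand beside 7.89% of all genes. In the list 17 of 28 were lower with a median of -0.05, where 62.6% of all genes were lower, and 14 to 16 under the 3 other scalings, with medians of -0.013 to -0.0029.

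Of 27 measured genes of synaptic vesicles and release, 20 were above 5.09, the same share as the 74.1% of all genes, and 0 passed in limma. PCLO, a protein of the presynaptic active zone, averaged 7.83 in Klotho cells and 7.87 in control cells, DNM1, the neuronal dynamin, 7.50 and 7.56 in Klotho and control cells, and VAMP2, the vesicle SNARE, 7.48 and 7.46 in Klotho and control cells. UNC13B, a vesicle priming gene, had the smallest p, with a difference of -0.24 (limma, adjusted p = 0.998). In this list 16 of 27 were lower in Klotho cells with a median of -0.02, and 8 to 12 when the arrays were scaled otherwise, with medians of 0.012 to 0.029. SYN1, the vesicle protein synapsin 1, read 6.26 ± 0.07 in Klotho cells and 6.21 ± 0.13 in control cells. SYP (synaptophysin) read 5.97, 5.48 and 4.46 on the Klotho arrays, against 5.24, 5.20 and 4.51 on the control arrays, so that its 6 values crossed the background mark in both groups.

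Of 23 measured neuronal RNA-binding and transcription factor genes, 18 were above 5.09, beside 74.1% of all genes, and 0 passed in limma. The median of the 23 was 5.73, below the brightest olfactory receptor gene (5.95). RBFOX1, a splicing factor of neurons and muscle, read 8.91 ± 0.02 in Klotho cells and 8.98 ± 0.13 in control cells, and INSM1, a factor of neuroendocrine cells, 7.18 ± 0.06 and 7.13 ± 0.04 in Klotho and control cells. ELAVL3 and ELAVL4, RNA-binding proteins restricted to neurons, averaged 4.62 and 3.02 in Klotho cells and 4.61 and 3.05 in control cells, below the mark. ELAVL2, another ELAVL gene of the list, lay above it, at 6.79 ± 0.11 in Klotho cells and 6.81 ± 0.27 in control cells. RBFOX3, which encodes the NeuN antigen, was not measured. Of 14 genes of transmitter synthesis and transport, 6 were above 5.09, a smaller share than over all genes. TH, the rate-limiting enzyme of catecholamine synthesis, was one of them, at 6.47 ± 0.16 in Klotho cells and 6.41 ± 0.05 in control cells.

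The repressor REST read 8.46, 8.46 and 8.65 on the Klotho arrays, against 8.41, 8.36 and 8.55 on the control arrays. All 6 values were far above the background mark, and the groups overlapped. The difference was 0.09 (95% interval -0.15 to 0.32; limma, adjusted p = 0.998). Its measured cofactors, among them RCOR1, KDM1A and the deacetylases HDAC1 and HDAC2, were also above the mark. So were all 12 genes of that list, beside 74.1% of all genes. Of the 12, 11 were lower in Klotho cells with a median of -0.09 (9 or 10 under the other scalings, with medians of -0.04 to -0.03), and 0 passed in limma. Over all genes, 62.6% were lower in the deposited values, and 42.7% to 50.3% when rescaled. HMG20B, a subunit of the same complex, had the smallest p (difference -0.16, limma, adjusted p = 0.998).

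**Figure D3:**
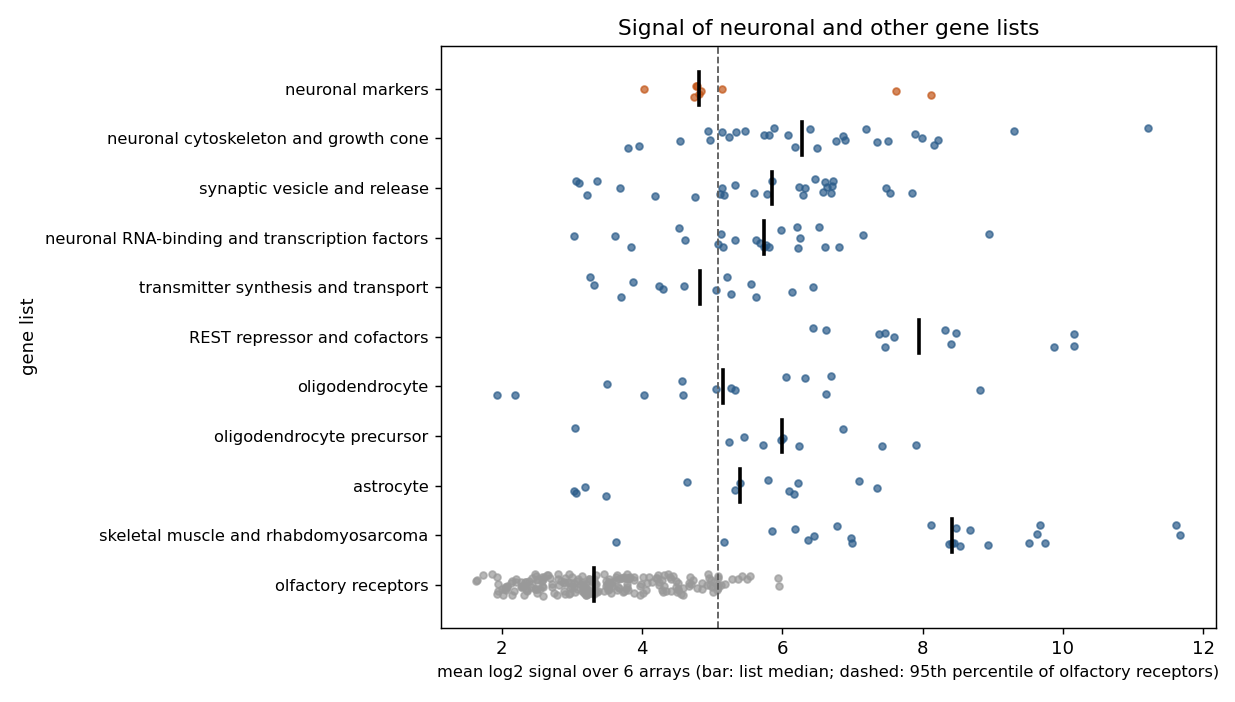
Mean log2 signal over the 6 arrays (horizontal axis) of the genes of 11 lists (vertical axis); each point is a gene, the black bar is the list's median and the dashed line is the olfactory receptor 95th percentile of 5.09. The neuronal markers (orange) cluster just left of the line, with a median of 4.81, while ENO2 and MAP2 stand apart on the right; the REST list and the muscle list lie almost wholly on the right.

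Markers of other cell types give the setting in which these values stand. Of 23 measured skeletal muscle and rhabdomyosarcoma genes 22 were above the background mark, against 3 of 9 neuronal markers. Among these were the acetylcholine receptor gene CHRNA1 (11.68 ± 0.04 in Klotho cells and 11.67 ± 0.11 in control cells) and the cardiac actin gene ACTC1. Oligodendrocyte genes were above it in 7 of 14, oligodendrocyte precursor genes in 9 of 10 and astrocyte genes in 8 of 13. Fibroblast genes were above it in 6 of 9, endothelial genes in 4 of 8 and microglia and blood genes in 3 of 11. Of all genes, 74.1% were above it. The part of the muscle or glial background in the signal of single neuronal markers was not tested. The mean of the 9 neuronal markers per array was 5.35 to 5.45 in the Klotho group and 5.41 to 5.52 in the control group, so the groups overlapped for the set as well.

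ENO2 was also compared with every other gene for the likeness of its 6 values. It had the widest range (0.41) of the members with a mean above the median of all probe sets. The 3 genes closest to it were TADA3 (Pearson r = 0.991), CDAN1 (r = 0.988) and DEDD (r = 0.988). With only 6 arrays such values are common, and 325 of 14231 genes had r over 0.9 with ENO2. The arrays share their scaling, and no more is read from this.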

How the data were processed

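RNA of 6 MO3.13 samples, 3 labelled Klotho-treated and 3 labelled control in the sample titles, was hybridised to 1 array each. Per the labels' protocols, total RNA was purified with Trizol and a column and amplified with the NuGEN procedure from 100 ng. The authors deposited log2 values, with a single value for each probe set on each array. RMA, which corrects background, normalizes quantiles and summarizes probes, is named without a version in the submitters' processing notes. Filters, annotation and genome build: not given in the sources used here. Deposited array medians ran from 6.36 to 6.47, and the arrays correlated at r = 0.985 to 0.991.

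The table held 22011 probe sets: 14432 with 1 gene symbol, 2408 with several and 5171 unnamed, the last possibly including control probe sets. Per gene, the single-symbol probe set of highest mean was used (14232 genes). Of the single-symbol probe sets, 14404 matched RefSeq (GRCh38.p14). RefSeq promoter windows were at hand for 5 of the 10 listed genes. No intensities or detection calls were at hand.

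Klotho minus control was fitted with limma 3.58.1 (R 4.3.3; lmFit, eBayes, 2-sided), and p-values were adjusted by Benjamini-Hochberg over all probe sets, with a threshold of 0.05. The fit was tested on simulated data. Arrays have no read depth, so precision depends on the number of arrays. Separate cultures are not stated in the labels, and p-values therefore reflect spread between arrays that may be technical only. Members and gene lists were chosen with earlier results of these data known. Named genes are the 10 members, their relatives, the REST gene, the neuron markers listed for the cell type check and, from the 3 of smallest p and 3 of highest signal in each list, those given. Same-numbered arrays did not deviate together (r = -0.18, 0.06 and -0.14), so the replicate number was not taken as a pairing.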

Additional observations from a re-analysis of the deposited data

How the results depend on the processing

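Under all alternatives run (median centring, quantile normalization, cyclic loess, a filter on dim probe sets, an intensity trend or robust prior, array quality weights, the replicate block and leaving out each array), 0 of the measured neuronal markers and 0 probe sets passed the adjusted threshold of 0.05 in limma, and 0 markers had an unadjusted p under 0.05. The filter on dim probe sets left 8 markers, since it removed SNAP25. Each marker had 1 probe set, so averaging probe sets changed nothing. The replicate block cannot change the differences in this balanced design, so the members' median difference of -0.06 is the same with it. The count of probe sets with an unadjusted p under 0.05 in limma was 662 with the block, against 703 without it. That count was 1644 with array quality weights and 1200 without Klotho array 3. The members' median difference ran from -0.12 to -0.00046 when 1 array was left out. The direction of ENO2, NEFM and STMN2 was the same in all 15 alternatives (14 for SNAP25), whereas the sign of NEFL, NEFH, SYT1, SNAP25, MAP2 and GAP43 changed in 2 to 5 of them. The intensity trend, robust prior, replicate block, dim probe set filter and probe set averaging cannot change a difference here. Only the 3 other scalings, the array quality weights and the leaving out of arrays could have changed a sign. Signals near background limit what the arrays can show for the neurofilament and synaptic genes.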

Other observations

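NEFL and NEFH, which lie on different chromosomes, had almost the same value on Klotho and control arrays of the same replicate number; this was noticed after the values were seen. The gaps (Klotho minus control) were 0.04, 0.00027 and 0.02 for NEFL and -0.04, -0.04 and 0.02 for NEFH on arrays 1, 2 and 3. Of 14232 genes, 96 had gaps no larger than those of NEFL and 89 had gaps no larger than those of NEFH. Of those 96, 7 had a range over the 6 arrays at least as wide as that of NEFL (0.23), NEFL included. Of those 89, NEFH alone had a range as wide as its own (0.36). The limits are each gene's own values, taken after the pattern was seen, so these counts do not measure how rare it is. Both genes were above the array's own olfactory receptor mark on 0 of 6 arrays. NEFM, the chain that assembles with both, did not share the small gaps: its gap on array 2 was -0.38. Over all probe sets same-numbered arrays did not deviate together, with correlations of -0.18, 0.06 and -0.14, and the labels do not say that the numbers mark shared cultures.

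TPH1, an enzyme of serotonin synthesis, had a difference of -0.28 (95% interval -0.65 to 0.10, limma adjusted p = 0.998) at a signal below the background mark. Its groups overlapped, with 3.97, 4.07 and 4.46 on the Klotho arrays, against 4.63, 4.31 and 4.37 on the control arrays. SNAP91, a clathrin assembly gene of synapses, had the largest difference of the synaptic vesicle list. It read 2.80, 3.80 and 3.73 on the Klotho arrays, against 3.50, 2.65 and 2.84 on the control arrays. Its mean signal of 3.22 lay below the olfactory receptor median of 3.32. Its difference of 0.45 did not pass (limma, adjusted p = 0.998) and had a 95% interval of -0.35 to 1.25, wider than that of any of the 9 markers.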
